A study of Homo sapiens with 12 samples.

Results

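The CREB3 family comprises the 5 transcription factor genes CREB3, CREB3L1, CREB3L2, CREB3L3 and CREB3L4. All 5 were found by symbol among the 23705 genes of the count table, and all 5 were among the 13522 genes that passed the filter on low counts. CREB3L3 was selected on its higher level in cells treated with rosiglitazone (RGZ), an agonist of the nuclear receptor PPARγ, than in vehicle-treated cells. Its values in every comparison that uses the RGZ or vehicle libraries are therefore given as a description, with no test, and the other 4 members were taken because they belong to the same family.

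RNA was sequenced from A375, an established human metastatic melanoma cell line, at passages 30 to 32. Cells received 5 µM RGZ, 2 µM of the PPARγ antagonist T0070907, both compounds together, or vehicle, and RNA was collected after 24 h. All 4 conditions shared serum-containing DMEM medium and the same DMSO vehicle. Each condition had 1 library in each of 3 independent experiments, made from RNA pooled over that experiment's technical replicates, so the 12 libraries describe a single cell line. Without the experiment in the model, p-values measure the spread between experiments with that line. With the experiment as a block, they measure the spread left after each experiment's shared shift is removed. Library totals ran from 8319455 to 11375227 counts, so a floor of 3 counts corresponded to 0.258 to 0.371 CPM, the counts scaled by library size. The A375 label was checked against melanocytic markers, of which 7 of 9 exceeded the floor in at least 1 library. The lineage factor SOX10 had 1558 to 4984 counts and MITF 240 to 666, whereas the pigment genes PMEL, MLANA, TYRP1, DCT and TYR were at or near 0, with at most 13 counts in any library.

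CREB3 proteins are bZIP transcription factors made as membrane proteins of the endoplasmic reticulum. After transport to the Golgi they are cut by the proteases encoded by MBTPS1 and MBTPS2, and the released amino-terminal part enters the nucleus and activates genes. CREB3, CREB3L1 and CREB3L2 are known for raising secretory capacity, with CREB3L1 also linked to collagen production, CREB3L4 is known from prostate and germ cells, and CREB3L3, also called CREBH, is best known from liver and small intestine, where it acts on lipoprotein and fasting metabolism and partners with PPARα.

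The promoter windows of the member with the highest RGZ ratio, CREB3L3, and of CREB3L2, another member whose window held a searched motif, are shown because PPARs bind direct repeats of AGGTCA and CREB factors bind TGACGTCA. Both come from RefSeq (GRCh38.p14) and are the 250 bases before the annotated start, read on the gene's strand at chr19:4153381-4153630 (plus strand) and chr7:138002087-138002336 (minus strand), with the motif in capitals.
CREB3L3: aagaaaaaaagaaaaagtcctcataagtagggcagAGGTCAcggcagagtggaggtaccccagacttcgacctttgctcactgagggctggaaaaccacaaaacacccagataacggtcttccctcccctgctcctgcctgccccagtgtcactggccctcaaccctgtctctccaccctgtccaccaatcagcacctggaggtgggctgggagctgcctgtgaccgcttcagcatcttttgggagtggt
CREB3L2: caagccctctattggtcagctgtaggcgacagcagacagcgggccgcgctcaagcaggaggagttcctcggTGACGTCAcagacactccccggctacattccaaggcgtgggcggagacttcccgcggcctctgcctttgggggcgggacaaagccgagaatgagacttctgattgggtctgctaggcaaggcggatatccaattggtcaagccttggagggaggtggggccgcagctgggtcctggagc

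The CREB3L3 window held AGGTCA once on the plus strand, 215 to 210 bases before the start, and the CREB3L2 window held TGACGTCA 179 to 172 bases before the start. Both strands were searched for AGGTCA, for TGACGTCA and for AGGTCANAGGTCA, which contains AGGTCA. The windows of CREB3, CREB3L1, CREB3L4 and a further annotated start of CREB3L2 held none of them, and no family window held AGGTCANAGGTCA. Of 35116 RefSeq windows of the same length, 12.1% held AGGTCA, 1.65% held TGACGTCA and 0.0171% held AGGTCANAGGTCA. A match says only that these letters lie in the window.

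In vehicle-treated cells CREB3 was the family member with the highest level per transcript length and CREB3L3 the one with the lowest. CREB3 stood at 30.8 ± 4.39 CPM per kb (SD, n = 3). CREB3L2 at 7.89 ± 0.725 CPM per kb and CREB3L4 at 7.75 ± 1.66 CPM per kb did not differ beyond their spread. CREB3L1 followed at 0.668 ± 0.319 CPM per kb and CREB3L3 at 0.194 ± 0.0706 CPM per kb. By CPM, CREB3L3 ranked 13505th of the 13522 tested genes in vehicle, near the lower edge of what this depth could count. The gene was tested only through treated libraries, and genes that failed the filter were not ranked. Its low rank follows in part from that.

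With RGZ, CREB3L3 stood at 4.65 ± 0.895 CPM per kb (SD, n = 3), above CREB3L1 at 0.461 ± 0.378 and below CREB3L4 at 6.83 ± 0.904 and CREB3L2 at 7.12 ± 0.587 CPM per kb. CREB3 remained highest at 32.9 ± 2.00 CPM per kb. In the counts of the whole family, CREB3L3 made up 0.289% to 0.516% in the vehicle libraries and 7.51% to 10.1% in the RGZ libraries. The share was 0.0922% to 0.347% with T0070907 and 0.529% to 1.81% with both compounds.

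**Figure D1:**
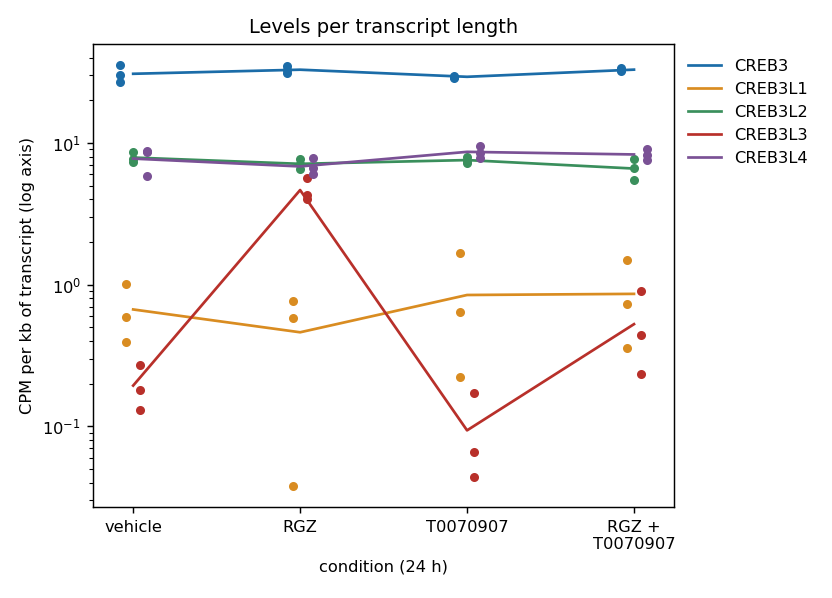
Level of each CREB3 family member in CPM per kb of its longest transcript (log axis) by condition, with 1 point per library and lines through the means of 3 libraries. CREB3 lies highest in all 4 conditions, and CREB3L3 has the lowest mean in every condition but RGZ, where its mean of 4.65 CPM per kb approaches those of CREB3L4 and CREB3L2.

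CREB3L3 was near the detection floor without the agonist and was counted over 100 times per library with RGZ alone. In experiments 1, 2 and 3 its raw counts were 3, 4 and 6 with vehicle. They were 108, 130 and 103 with RGZ. The lowest RGZ library lay above every library of the other 3 conditions, and the levels of the RGZ libraries, 11.2, 14.8 and 10.5 CPM, differed less from each other than from any other library.

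The mean level of CREB3L3 was 0.508 ± 0.185 CPM with vehicle and 12.2 ± 2.34 CPM with RGZ (SD, n = 3), a ratio of means of 24.0. The pooled counts of 341 against 13, scaled by library size, gave a ratio of 23.9 with a 95% interval of 13.8 to 45.3, which covers counting error only. On the log2 scale the fitted difference was 4.55 (SE 0.45), and within experiments 1, 2 and 3 it was 5.04, 4.96 and 3.89. Of the called genes that averaged 1 CPM or more, 3 had a higher log2 fold change, FABP4 at 10.94, ANGPTL4 at 6.24 and CD36 at 4.87, which encode a fatty acid-binding protein, a lipoprotein lipase inhibitor and a fatty acid transporter. These values chose the gene and support nothing beyond the choice. In bulk RNA, more transcript per cell and more cells with the transcript cannot be told apart.

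Because CREB3L3 passed the filter only through treated libraries, its place among the tested genes is itself tied to the agonist. The filter's cutoff was 1.09 CPM, and CREB3L3 exceeded it in 3 of 3 RGZ libraries, 2 of 3 libraries with both compounds, and 0 of 6 others.

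**Figure D2:**
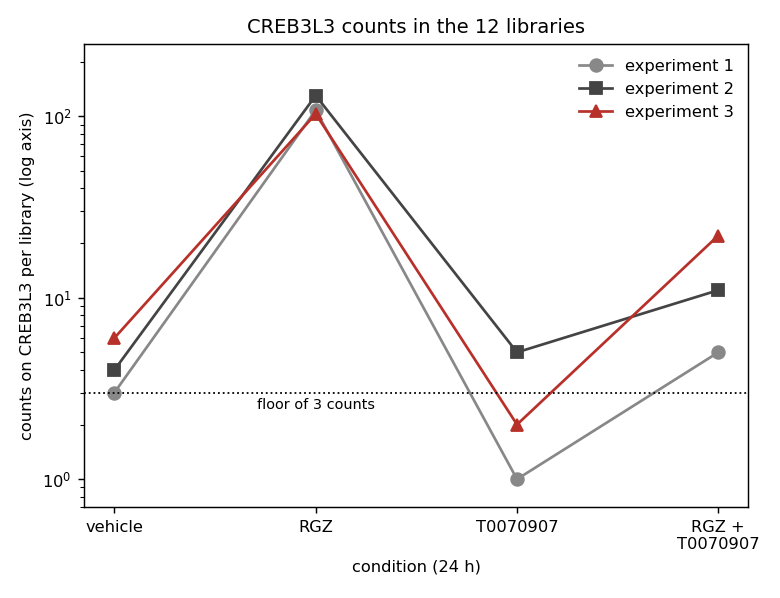
Raw counts on CREB3L3 in each of the 12 libraries (log axis) by condition, with lines joining the libraries of an experiment and a dotted line at the floor of 3 counts. The RGZ libraries hold 103 to 130 counts and every other library holds at most 22.

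When T0070907 was added together with RGZ, CREB3L3 counts were 5, 11 and 22 in experiments 1, 2 and 3. The level was 1.38 ± 0.891 CPM (SD, n = 3), 11.3% of the mean with RGZ alone. The highest library with both compounds lay below the lowest RGZ library. The fitted log2 difference from RGZ alone was -3.11 (SE 0.39), and within the experiments it was -4.18, -3.68 and -2.15. The interaction of the compounds, the difference between the RGZ effects with and without T0070907, was -2.15 (SE 0.84) on the log2 scale. Within experiments 1, 2 and 3 it was -2.62, -3.59 and -0.11, and the blocked fit gave -1.07 without experiment 2 and -3.40 without experiment 3. Both differences use the RGZ libraries and are given with no test.

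Whether some agonist effect on CREB3L3 was left in the presence of T0070907 is asked by the comparison of both compounds with T0070907 alone, which shares no library with the contrast that chose the gene. The T0070907 libraries held 1, 5 and 2 counts. CREB3L3 was higher with both compounds in 3 of 3 experiments, by 2.42, 1.37 and 3.77 on the log2 scale, and the raw counts of the groups met at 5. In CPM the highest T0070907 library was at 0.448 and the lowest with both compounds at 0.618. In the fit of all 12 libraries with the experiment as a block, CREB3L3 fell under the threshold. Its log2 fold change was 2.42 (SE 0.57, adjusted p = 0.0179, edgeR's quasi-likelihood test). That fit took its spread and experiment effects from the RGZ and vehicle libraries as well, so the call is not independent of the choice of the gene. Without the block the log2 fold change was 2.40 (SE 0.56), the unadjusted p 0.00111 and the adjusted p 0.221, so the call rested on the block. It also rested on how CREB3L3 came to be tested, since the gene passed the filter through RGZ libraries that are not part of this contrast, and with only the groups compared it was filtered out and had no test. When those groups were fitted with the block and no filter, a setting chosen after seeing the data, the log2 fold change was 2.44 (adjusted p = 0.00120, edgeR). The call was lost in the blocked fit without experiment 3, where the log2 fold change was 1.56 and the adjusted p 0.233. The pooled counts, 38 against 8, gave a ratio of 5.54 with a counting interval of 2.55 to 13.8.

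In that comparison with T0070907 alone, 0 of the 5 members passed edgeR's test without the block, with 1 at an unadjusted p under 0.05, and 1 of 5 passed with it, with 3 at an unadjusted p under 0.05. The member that passed was CREB3L3, which the filter admitted through RGZ libraries outside this contrast, and no other member passed. Among all tested genes, 0.037% passed without the block and 8.76% with it. DESeq2 called 0 members and gave no adjusted p for CREB3L3.

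CREB3L3 with both compounds was higher than with vehicle in 3 of 3 experiments, by 0.86, 1.28 and 1.74 on the log2 scale. The fitted difference was 1.44 (SE 0.52), or 0.82 without the library with both compounds of experiment 3, and the pooled counts of 38 and 13 gave a ratio of 2.79, with a counting interval of 1.45 to 5.71. As the vehicle libraries belong to the contrast that chose the gene, these values are a description with no test.

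Of the other 4 members, 0 passed edgeR's test for both compounds against vehicle, with and without the block, and 1, CREB3L2, had an unadjusted p under 0.05 in either fit. DESeq2 called 0 with 0 under an unadjusted 0.05. Among all tested genes 0% passed with and without the block, while 1438 had an unadjusted p under 0.05 without the block and 2868 with it.

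With T0070907 alone, the 3 libraries with 1, 5 and 2 CREB3L3 counts had a mean level of 0.245 ± 0.178 CPM (SD, n = 3), 48.3% of the vehicle mean, and the counts of the groups overlapped. The log2 difference of -0.96 (SE 0.67) is likewise given with no test, and no library of either group exceeded the filter's cutoff. Leaving out 1 library at a time gave -1.69 to -0.66. The blocked fit gave -1.74 without experiment 2 and -0.45 without experiment 3. The pooled ratio of 8 to 13 counts was 0.503, with a counting interval of 0.181 to 1.31. None of the other 4 members passed, so 0 of 4 were called by edgeR with and without the block, with 0 at an unadjusted p under 0.05 and 0 called by DESeq2. Among all tested genes, 0.0074% passed without the block and 0.91% with it.

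The other 4 members, which the choice of CREB3L3 did not use, did not pass the test for RGZ against vehicle. edgeR called 0 of 4 with and without the block, 0 had an unadjusted p under 0.05 in either fit, and DESeq2 called 0. In the same comparison 1.24% of all tested genes passed without the block and 9.3% with it. Their intervals bound the differences that these libraries leave possible.

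CREB3, the widely expressed founding member, had 432, 546 and 468 counts with vehicle and 546, 561 and 590 with RGZ. The 2 groups overlapped, with 56.4 ± 8.04 and 60.2 ± 3.66 CPM (SD, n = 3). Its log2 fold change was 0.10, with a 95% interval of -0.10 to 0.30 and an adjusted p of 0.768 (edgeR).

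CREB3L2, which is known from chondrocytes and secretory cells, had 500, 455 and 548 counts with vehicle and 466, 462 and 563 with RGZ. Its level was lower with RGZ in 3 of 3 experiments, at 52.8 ± 4.35 against 58.5 ± 5.38 CPM (SD, n = 3), and the groups overlapped. The log2 fold change of -0.15 had an interval of -0.40 to 0.10 and an adjusted p of 0.703 (edgeR).

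CREB3L4 had 90, 127 and 131 counts with vehicle and 102, 120 and 114 with RGZ. The groups overlapped at 13.6 ± 2.92 and 11.96 ± 1.58 CPM (SD, n = 3). Its log2 fold change of -0.18 had an interval of -0.55 to 0.18 and an adjusted p of 0.755 (edgeR).

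CREB3L1 had 14, 23 and 9 counts with vehicle and 15, 18 and 1 with RGZ. It was lower with RGZ in 3 of 3 experiments, with log2 differences of -0.03, -0.41 and -3.38, and the last of these rested on a library with 1 count. The fitted log2 fold change was -0.55, with an interval of -2.41 to 1.31 and an adjusted p of 0.871 (edgeR). With the block the interval was narrower, -1.32 to 0.22 around -0.55, and the adjusted p was 0.412.

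**Figure D3:**
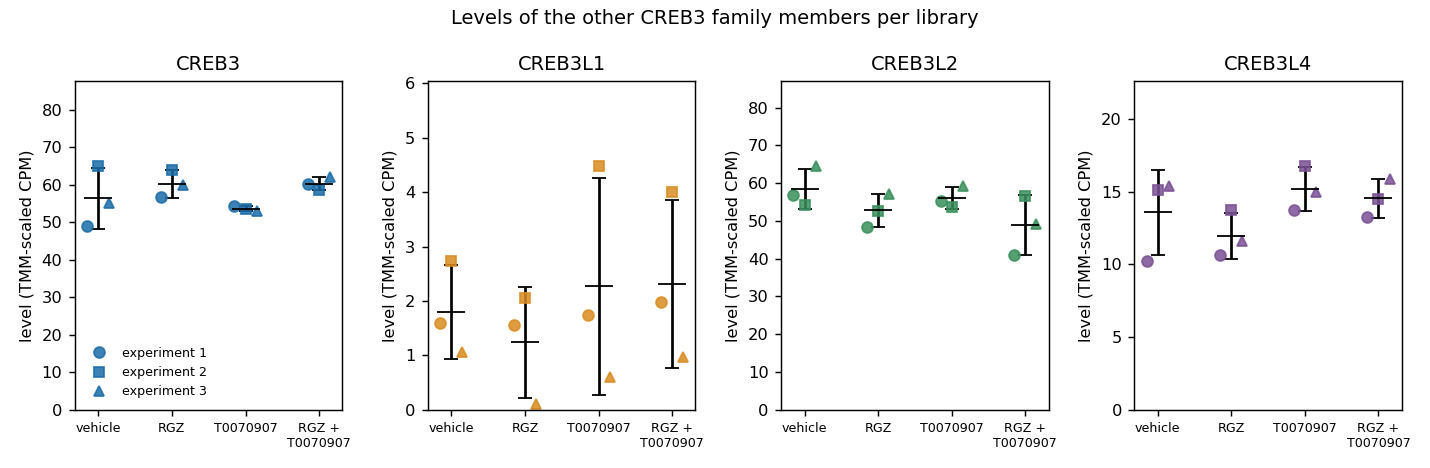
Levels of CREB3, CREB3L1, CREB3L2 and CREB3L4 in TMM-scaled CPM for the 4 conditions, 1 panel per gene with its own axis from 0, with a point per library marked by experiment and bars for the mean and SD of 3 libraries. The vehicle and RGZ points overlap in each panel, and CREB3L1 is highest in experiment 2 and lowest in experiment 3 in all 4 conditions.

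Adding T0070907 to RGZ did not move any of these 4 members past the test. edgeR called 0 of 4 with and without the block, and DESeq2 called 0, against 1.24% of all tested genes without the block and 11.4% with it. None of the 4 had an unadjusted p under 0.05 without the block. With it CREB3L1 and CREB3L4 did, both with higher levels in 3 of 3 experiments. CREB3L1 stood at 2.31 ± 1.54 CPM with both compounds against 1.24 ± 1.02 with RGZ (SD, n = 3), a log2 fold change of 0.92 with an interval of -0.88 to 2.72 and an adjusted p of 0.677 (edgeR). Within experiments it was 0.34, 0.96 and 3.25, the last against the RGZ library with 1 count, and leaving out 1 library at a time gave 0.25 to 1.48. CREB3L4 had 107, 138 and 148 counts with both compounds, at 14.5 ± 1.32 CPM, and its log2 fold change of 0.28 had an interval of -0.08 to 0.65 and an adjusted p of 0.506 (edgeR). CREB3 differed by 0.00 (interval -0.20 to 0.20), with 487, 558 and 579 counts, and CREB3L2 by -0.11 (interval -0.36 to 0.14).

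Against vehicle, CREB3L2 with both compounds had 331, 539 and 458 counts and a level of 48.9 ± 7.90 CPM (SD, n = 3). The log2 fold change of -0.26 had an interval of -0.51 to -0.01 (adjusted p = 0.461, edgeR), and it was lower in 2 of 3 experiments. Against T0070907 alone it was -0.20 (adjusted p = 0.445, edgeR). CREB3 was higher with both compounds than with T0070907 alone in 3 of 3 experiments, at 60.3 ± 1.68 against 53.7 ± 0.711 CPM (SD, n = 3), and the lowest library with both compounds lay above the highest T0070907 library. Its log2 fold change of 0.17 did not pass (adjusted p = 0.413, edgeR). How many of all tested genes separated in this way was not counted.

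For T0070907 alone, CREB3 had 471, 599 and 615 counts and a log2 fold change of -0.07 from vehicle (interval -0.27 to 0.13). CREB3L2 had 479, 600 and 688 counts and a change of -0.06 (interval -0.31 to 0.19). CREB3L4 had 119, 187 and 174 counts and a change of 0.16 (interval -0.20 to 0.52). These intervals lay within a change of 1.5-fold either way, whereas that of CREB3L1, -1.38 to 2.07 around 0.34, did not, nor did its blocked interval of -0.34 to 0.98. In the interaction of RGZ and T0070907, 0 of the 4 tested members were called by edgeR with or without the block, 0 had an unadjusted p under 0.05 and DESeq2 called 0. Among all genes 0% passed without the block, where 406 had an unadjusted p under 0.05, and 0.281% with it.

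**Figure D4:**
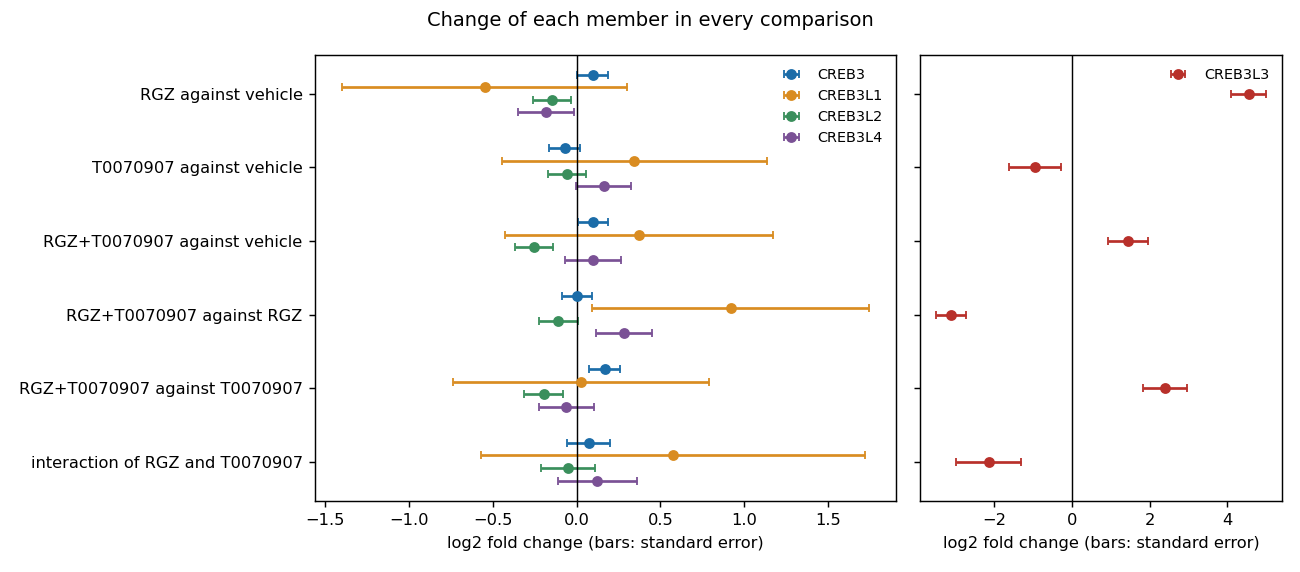
Log2 fold change of each CREB3 family member in the 6 comparisons, with bars for the standard error from edgeR without the block. The left panel holds CREB3, CREB3L1, CREB3L2 and CREB3L4 and the right panel CREB3L3 on a wider scale, where the RGZ difference is 4.55 and the difference of both compounds from RGZ is -3.11.

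CREB3L1 differed more between experiments than between conditions. Its counts with T0070907 were 15, 50 and 7 in experiments 1, 2 and 3, and with both compounds 16, 38 and 9. Experiment 2 was highest and experiment 3 lowest in each condition. Of its variation in log2 CPM, 73.1% lay between experiments and 15.4% between conditions. For CREB3L4 the shares were 44.9% and 36.1%, and for CREB3L3 2.36% and 94.6%, the last of which the choice of the gene fixes in part.

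COL1A1, the collagen gene known as a target of CREB3L1, had the same order of experiments. Its level was 9.88, 27.4 and 5.53 CPM with vehicle and 6.45, 16.1 and 2.74 CPM with RGZ. Over the 12 libraries the log2 levels of CREB3L1 and COL1A1 had a Pearson r of 0.881, a value that 0.393% of the genes compared reached or exceeded with CREB3L1. The libraries share experiments, the pair was chosen after its values were seen, and r was 0.917 after removing condition means.

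Around the family, the genes that process or bind its proteins stayed below the test with RGZ. The list held 10 genes, of which 8 were tested, and edgeR called 0 with and without the block, with 0 at an unadjusted p under 0.05 without it and 1 with it. Over all tested genes the called shares were 1.24% without the block and 9.3% with it, at which 0 of 8 does not set the list apart. Their median log2 fold change was -0.09, against -0.01 over all tested genes. MBTPS1, the protease that makes the first cut, stood at 127 ± 9.81 CPM with RGZ against 132 ± 2.18 with vehicle (SD, n = 3). MBTPS2, which makes the following cut in the membrane, stood at 47.7 ± 1.59 against 50.9 ± 5.55 CPM. HCFC1, a host cell factor that binds CREB3, was at 209 ± 23.8 against 223 ± 24.3 CPM. Over all libraries, edgeR called HCFC1 of this list with both compounds against T0070907 alone, at -0.22, with the block (adjusted p = 0.0451) and not without it (0.337). HCFC1 was called there in 6 of 10 blocked fits, which pair the block with other settings, and its adjusted p in them ran up to 0.30. In that comparison 1 of 8 is near the blocked share of 8.76% over all genes. With both compounds against vehicle, 1 of 10 blocked fits called HCFC1 and 2 of 9 called SEL1L, a partner of the degradation ligase SYVN1, and against RGZ 1 of 10 called SEL1L.

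Of 10 related factors, which are bZIP proteins of the stress response and the CREB family and other factors cut by the same proteases, all 10 were tested. With RGZ edgeR called 0 without the block and 1 with it, with 3 at an unadjusted p under 0.05 in either fit, and the median log2 fold change was 0.04. A count of 1 in 10 is near the blocked share of 9.3% over all genes, and over the other blocked fits it ran from 0 to 4. The gene called was XBP1, a factor of the unfolded protein response. Its level was 63.1, 68.7 and 61.8 CPM with vehicle and 76.5, 75.6 and 73.1 CPM with RGZ. Its log2 fold change of 0.22 (SE 0.06) had an adjusted p of 0.0310 with the block and 0.151 without it (edgeR). The call was lost in the blocked fits without experiment 1 (adjusted p = 0.180) and without experiment 3 (adjusted p = 0.339) and with blocked DESeq2 (adjusted p = 0.101). With both compounds XBP1 fell below RGZ by 0.24 on the log2 scale (adjusted p = 0.0184 with the block and 0.108 without, edgeR). That call held in 5 of 10 blocked fits and was lost without experiment 1 (adjusted p = 0.0767), without experiment 3 (0.213), with blocked DESeq2 (0.0591) and with only the groups compared (0.0931). ATF6B and SREBF1, both activated by the same pair of proteases, were higher with both compounds than with RGZ, by 0.24 and 0.37 on the log2 scale, with edgeR adjusted p of 0.0278 and 8.36e-04 with the block and of 0.169 and 0.379 without it. ATF6B was called in 4 of 10 blocked fits and SREBF1 in all 10. These 3 of 10 genes called with the block stand beside 11.4% of all tested genes, and in other blocked fits the count ran from 1 to 3. ATF4, the most abundant of these factors, was at 574 ± 26.5 CPM with RGZ against 512 ± 22.3 with vehicle (SD, n = 3). It was higher in 3 of 3 experiments and did not pass (adjusted p = 0.396 without the block and 0.108 with it, edgeR). Of the blocked fits, 2 of 10 called ATF4.

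The described CREB3L3 targets were largely not detected, whatever the CREB3L3 level. Of 14 target genes, 12 were not tested, 11 of these had at most 3 counts in every library and 4 had 0 in all 12. The apolipoprotein genes APOA4, APOC2 and APOC3 and the acute-phase gene CRP were the 4 at 0. FGF21, a fasting hormone, had at most 1 count. CIDEC, a lipid droplet gene, had 5, 7 and 1 counts with vehicle and 3, 31 and 10 with RGZ, and the groups overlapped. CIDEC did not pass the filter. With the filter dropped, edgeR measured CIDEC at a log2 fold change of 1.64 (adjusted p = 0.677), and adding the block called it (adjusted p = 0.0330).

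CPT1A, the carnitine palmitoyltransferase of mitochondrial fatty acid import, was the called gene of the tested pair. It rose with RGZ from 60.5, 57.0 and 69.5 CPM to 103, 104 and 113 CPM, a log2 fold change of 0.78 (SE 0.12, adjusted p = 0.00743, edgeR). Without the vehicle library of experiment 1 the change was 0.76 and no longer passed (adjusted p = 0.0523, edgeR). CPT1A fell by 0.89 on the log2 scale when T0070907 was added to RGZ (adjusted p = 0.00445, edgeR). With T0070907 alone its log2 fold change was -0.78, with an adjusted p of 1.92e-04 with the block and 0.116 without (edgeR). That change was called in 9 of 10 blocked fits and in 4 of 19 without the block, among them DESeq2 (adjusted p = 1.03e-05) and edgeR with no filter (adjusted p = 0.0487). Among all tested genes, 1.24% passed for RGZ against vehicle without the block and 9.3% with it. For both compounds against RGZ the shares were 1.24% and 11.4%, and for T0070907 alone 0.0074% and 0.91%. CPT1A is also a described target of PPARs. PPARA, the partner of CREB3L3, was measured at -0.43 with RGZ and did not pass (adjusted p = 0.193 without the block and 0.0612 with it, edgeR). In the blocked fit of only the RGZ and vehicle libraries it was called lower, at -0.42 (adjusted p = 0.0364).

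Among 21 secretory genes and described targets of CREB3, CREB3L1 and CREB3L2, 20 were tested. With RGZ edgeR called 0 without the block and 1, COL1A1, with it, with 1 and 2 at an unadjusted p under 0.05, and the median log2 fold change was 0.01. The count of 1 in 20 lay below the blocked share of 9.3% over all genes. ARF4, a small GTPase of the Golgi induced by CREB3 in Golgi stress, was at 358 ± 12.5 CPM with RGZ against 337 ± 5.29 with vehicle (SD, n = 3). KDELR2, a receptor that returns proteins to the endoplasmic reticulum, was at 258 ± 5.33 against 249.9 ± 6.49 CPM. COL1A1 was lower with RGZ in 3 of 3 experiments, with a log2 fold change of -0.77 (SE 0.82, adjusted p = 0.801) without the block and -0.76 (SE 0.13, adjusted p = 6.72e-04) with it (edgeR). It was called in 10 of 10 blocked fits and 0 of 19 without the block, and over all fits the change ran from -1.63 to 0.11. The COPII coat genes SEC31A and SEC16A were lower with both compounds than with T0070907 alone by the blocked fit, at -0.22 and -0.20 on the log2 scale with adjusted p of 0.0415 and 0.0441, and COL1A1 likewise at -0.55 (adjusted p = 0.0125, edgeR). Without the block none of these 3 passed (edgeR), and 3 of 20 stands beside a blocked share of 8.76% over all genes. Over the other blocked fits the count of this list ran from 0 to 4, with SEC31A called in 6 of 10, SEC16A in 5 of 10 and COL1A1 in 9 of 10. The change of COL1A1 in this comparison ran from -1.39 to 0.28 over all fits.

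Over the 4 lists and 6 comparisons, CPT1A was the single gene called in any of the 19 fits without the block, in 18 for RGZ against vehicle and in all 19 for both compounds against RGZ. With the block over all libraries, edgeR called no further list gene for T0070907 against vehicle, and the cell cycle inhibitor CDKN1A was called in 2 of 10 blocked fits. In the comparison of both compounds with T0070907, CPT1A was higher by 0.66 on the log2 scale (adjusted p = 3.27e-04 with the block and 0.117 without, edgeR), and it was called in 9 of 10 blocked fits and 2 of 19 without the block. For both compounds against vehicle and for the interaction, edgeR over all libraries called 0 genes of the lists with and without the block, and DESeq2 without it called 0. Other blocked fits of both compounds against vehicle called up to 2 partner genes, 2 related factors and 4 secretory genes, while those of the interaction called 0. In edgeR's blocked fit over all libraries, 0.91% of all tested genes passed for T0070907 against vehicle. The share was 0% for both compounds against vehicle and 0.281% for the interaction. Shares for the other blocked fits are not given here, so the counts from those fits cannot be weighed.

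**Figure D5:**
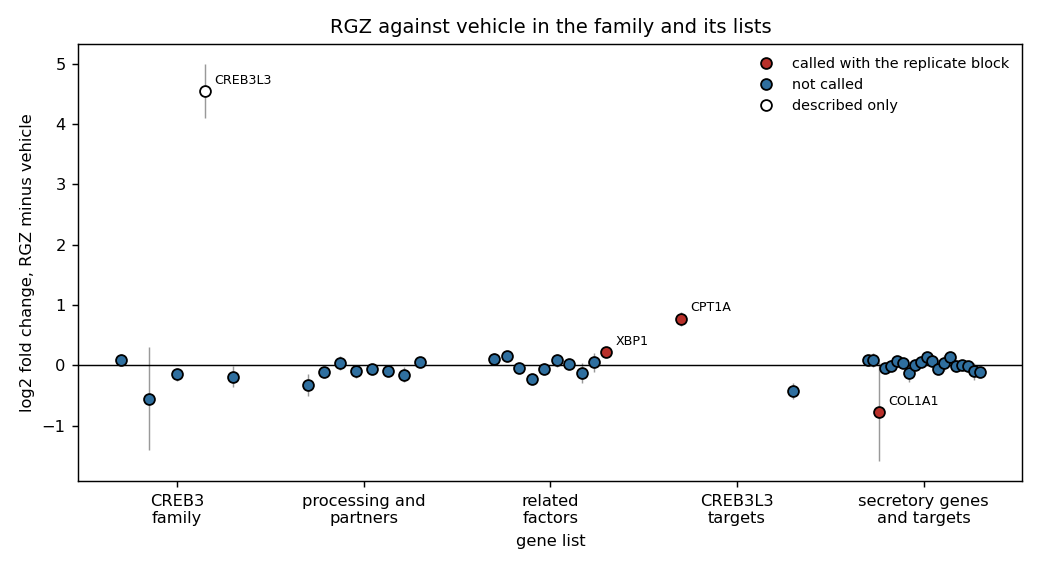
Log2 fold change with RGZ against vehicle for the CREB3 family and each tested gene of the 4 lists, with bars for the standard error from edgeR without the block. Genes called with the block are XBP1, CPT1A and COL1A1, and CREB3L3 is drawn open because it was described only.

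The genes whose levels over the 12 libraries were most like that of CREB3L3 were SLC25A20, PLIN2, FABP4, ALAS1 and LPCAT3. Over the 13217 genes compared, which averaged 1 CPM or more, the Pearson r of log2 CPM was 0.981 for SLC25A20, the mitochondrial carnitine-acylcarnitine carrier. It was 0.977 for PLIN2, a lipid droplet coat gene, and 0.976 for FABP4. ALAS1, the first enzyme of haem synthesis, had 0.973 and LPCAT3, a phospholipid remodelling enzyme, 0.971. After removing condition means r was 0.823, 0.814, 0.721, 0.297 and 0.864, and the points share conditions, experiments and libraries.

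The neighbours of CREB3L3 on chromosome 19 had no difference like its own. MAP2K2 was at 93.2 CPM with vehicle and 95.0 with RGZ (adjusted p = 0.948, edgeR), and SIRT6 at 33.7 and 34.7 CPM (adjusted p = 0.944). Neither overlaps CREB3L3. CREB3L4 overlaps SLC39A1 and JTB, CREB3 overlaps GBA2 and CREB3L2 overlaps an antisense RNA with 0 counts. As the strand setting of the counting is not known here, reads of overlapping genes could be shared, and the CREB3, CREB3L2 and CREB3L4 levels are uncertain to that extent.

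Summed markers of hepatocytes, of a tissue for which CREB3L3 is known, were not higher with RGZ, and those of enterocytes overlapped between RGZ and vehicle. Of 10 hepatocyte markers 5 exceeded the floor, with summed levels of 7.27 to 7.85 CPM with vehicle and 6.13 to 7.08 CPM with RGZ, and ALB, APOB, APOH and FGB were at 0. Of 6 enterocyte markers 1, LGALS4, exceeded the floor, with sums of 0.357 to 0.706 CPM with vehicle and 0.114 to 0.914 with RGZ, and VIL1, FABP2 and SI were at 0. The 9 melanocytic markers summed to 291 to 532 CPM with vehicle and 239 to 458 with RGZ. Of these, S100B was lower with RGZ at -0.99 on the log2 scale (adjusted p = 3.73e-05 with the block and 0.580 without, edgeR). MITF was lower at -0.34 (adjusted p = 0.00997 with the block and 0.731 without, edgeR), and the part of these differences in the CREB3L3 values was not tested.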

How the data were processed

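Deposited raw counts per gene (23705 NCBI gene numbers, 12 A375 libraries) were analysed. Per the labels, TruSeq libraries from total RNA were sequenced on an Illumina HiSeq instrument, and the submitters' processing notes name hg19. The aligner, counter, annotation and strand setting are not given in the sources used here. Symbols (23538 matched) and promoter windows came from RefSeq GRCh38.p14, and transcript lengths from the longest GENCODE v29 transcript. Its 98.4% coverage of tested genes, and the differing builds, limit per-length levels to a description.

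Counts were scaled by TMM, filtered with filterByExpr (13522 genes) and fitted for all 12 libraries with edgeR 4.0.16 (R 4.3.3) by the quasi-likelihood test, with Benjamini-Hochberg adjustment over all tested genes and a threshold of 0.05. Log2 CPM used a prior count of 2. DESeq2 1.42.0 and limma 3.58.1 were alternatives. Replicate numbers in the titles were taken as the 3 independent experiments. The titles do not themselves say that a number marks the same experiment in every condition. Same-experiment deviations from group means had a mean r of 0.554 (range 0.0793 to 0.758, 18 pairs), and the common dispersion was 0.0193 without and 0.00333 with the experiment as a block. Blocked values stand where they change a call. Scripts were tested on simulated data. Counting intervals are exact, at 95%.

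The 5 members and the 4 lists were chosen with earlier results of these data known. Named were all members, every called list gene, up to 4 others of a list by mean level, and the genes most like each member by correlation. MBTPS2, CIDEC and FGF21 and the genes at 0 fall outside this rule and were named after their values were seen. DCSTAMP, TM4SF20 and COL1A2 were among the list genes not tested.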

Additional observations from a re-analysis of the deposited data

How the results depend on the processing

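The fit with the experiment as a replicate block was planned, and its combinations with other settings were chosen after seeing the data. Without the block, 0 tested members were called in any of the 6 comparisons, and this held under the other planned settings (edgeR, DESeq2 and limma-voom). With the block, CREB3L3 with both compounds against T0070907 was called (count 1, adjusted p = 0.0179, edgeR), also without experiment 1 (1, adjusted p = 0.0200), with limma-voom (1, adjusted p = 0.0137) and with no filter (1, adjusted p = 3.69e-04). CREB3L3 entered these fits through RGZ libraries or for want of a filter. With only the groups compared it was filtered out, with and without the block, and with the block and no filter in those groups the count was 1 (adjusted p = 0.00120). Without experiment 2 the count was 2, CREB3L3 and CREB3L2, and without experiment 3 it was 0. Over all alternatives the adjusted p of CREB3L3 there ran from 3.69e-04 to 0.628. Against vehicle, both compounds gave a count of 1 in the blocked fit without experiment 2 (CREB3L2, -0.44, adjusted p = 0.00172). The block changed no other call on a member. Over all genes it moved the calls from 167 to 1258 for RGZ against vehicle, from 1 to 123 for T0070907, from 167 to 1545 for both compounds against RGZ, from 5 to 1185 against T0070907 and from 0 to 38 for the interaction.

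Of the log2 fold changes of members, 36 turned sign and none of these was called. Against T0070907, CREB3L1 turned with the block without experiment 1 (-0.0098) and 3 (-0.063), and CREB3L4 without experiment 2 (0.021). For T0070907 against vehicle, CREB3L1 turned with limma-voom (-0.0073) and the block without experiment 2 (-0.20), as did CREB3 (0.039). CREB3L4 with both compounds against vehicle turned with the block without experiment 1 (-0.0079). CREB3 with both compounds against RGZ was -0.0017 with no filter, -0.00012 with only the groups compared, -0.0012 with the block and no filter, -0.011 with the block, no filter and only the groups compared, and -0.037 and -0.022 with the block without experiments 1 and 3. In the interaction CREB3L2 turned with the block without experiment 1 (0.017) and CREB3L4 without experiment 3 (-0.082).

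Leaving out 1 library at a time turned signs within these ranges. For RGZ against vehicle CREB3L1 ran from -1.11 to 0.0082. For T0070907 CREB3 ran from -0.16 to 0.044, CREB3L1 from -0.67 to 0.81, CREB3L2 from -0.11 to 0.017 and CREB3L4 from -0.0081 to 0.26. For both compounds against vehicle CREB3L1 ran from -0.30 to 0.80 and CREB3L4 from -0.070 to 0.20. Against RGZ CREB3 ran from -0.039 to 0.047 and CREB3L2 from -0.23 to 0.0024. Against T0070907 CREB3L1 ran from -0.65 to 1.04 and CREB3L4 from -0.13 to 0.016. In the interaction CREB3 ran from -0.039 to 0.16, CREB3L1 from -0.096 to 1.59 and CREB3L2 from -0.17 to 0.061. The causes were not tested. Counts of called list genes moved in 86 combinations of list, comparison and setting, 1 of which is the loss of CPT1A for RGZ against vehicle without the vehicle library of experiment 1. Requiring at least 10 counts in every library removed CREB3L1 and CREB3L3, fitting only the groups compared removed CREB3L3 where RGZ was not one of them, and DESeq2 gave CREB3L3 no adjusted p against T0070907. Outside RGZ, CREB3L3 had 1 to 22 counts per library, and CREB3L1 had 1 to 50 over all conditions.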

Other observations

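Genes most like the other members over the 12 libraries, by Pearson r of log2 CPM, are given as values. For CREB3 they were SPAG7 (0.906), ATP5MF (0.903) and IER2 (0.897). For CREB3L1 they were STK38 (0.949), SPN (0.946) and MORN4 (0.944). For CREB3L2 they were MSTO1 (0.918), PSD3 (0.912) and BACE1-AS (0.909), and for CREB3L4 MXD4 (0.943), ACP5 (0.941) and PFKL (0.938). Between members, the highest r was 0.513, for CREB3 with CREB3L3, and the lowest -0.387, for CREB3 with CREB3L2. The points share conditions and experiments.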
